A study of Mus musculus with 6 samples.

Results

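The 6 cerebellum libraries of this study fell into 2 sides by their level of Ttr, the gene for transthyretin, which the choroid plexus epithelium secretes in large amounts. A library was placed on the Ttr-high side at 100 FPKM or more (reads of a gene, divided by its exon length and by the size of the library) and on the Ttr-low side under 10 FPKM. This put 3 of the 6 libraries on each side. The 3 Ttr-high libraries were WT 1, WT 3 and HET 2, and the 3 Ttr-low libraries were WT 2, HET 1 and HET 3. The lowest Ttr-high library had 150 FPKM of Ttr and the highest Ttr-low library 6.43 FPKM, with no library between them. Because a measured value drew the line, the differences between the sides are a description and carry no test.

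The study measured RNA of the cerebellum in wild-type mice (WT, labelled C57BL/6) and in mice with 1 null allele of Reln (HET, heterozygous, labelled Orl/BalbC), with 3 libraries of each. All animals were male and 6 weeks old, and no further allele or treatment is named in the labels. Strain differs with genotype in every library, so the effects of genotype and strain cannot be told apart. Whether each library is a separate animal is not in the labels, so p-values measure only the spread between these libraries, which may be technical.

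The choroid plexus is a folded sheet of secretory epithelium on a core of vessels and stroma, and it hangs in the brain ventricles, including the fourth ventricle under the cerebellum. Its cells make cerebrospinal fluid by moving ions and water from blood to ventricle, and tight junctions between them close the path between the cells. They also secrete carrier proteins and growth factors and take up vitamins for the brain. The neurons and glia of the cerebellum itself make little or none of several of these proteins, so the plexus genes mark whether RNA of that tissue is in a library.

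Every Ttr-high library was deeper than every Ttr-low one, at about 27100000 to 28600000 reads in the Ttr-high and 22900000 to 26800000 in the Ttr-low libraries, as estimated from the steps between low FPKM values, and the part of depth in the results was not tested. The files listed 24537 genes, of which 17285 to 17673 were above 0 in a library. Reln, the targeted gene, stood at 0.834, 0.771 and 0.940 FPKM in WT 1, 2 and 3 and at 0.531, 0.509 and 0.580 FPKM in HET 1, 2 and 3. The genotype labels were thus matched by a lower Reln level in every HET library, and Reln did not separate the Ttr sides. Below, values are given first for WT 1, WT 3 and HET 2 and then for WT 2, HET 1 and HET 3, as deposited unless called scaled.

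The 250 bases before the start site of 3 plexus genes with large differences between the sides are shown here, from the RefSeq promoter table of GRCm38.p6, because the genes described below differed together. Mfrp lies on the plus strand (chr9:44101520-44101769), Kcnj13 on the minus strand (chr1:87394730-87394979) and Kcne2 on the plus strand (chr16:92292139-92292388). Capitals mark a match to GGATTA, the reverse complement of TAATCC, which is the core read by OTX homeodomain factors such as the plexus factor Otx2, or to the TATA box TATAAA. Kcne2 has another entry (chr16:92295366-92295615), which, like that of Aqp1, is not shown and held no match.
Mfrp: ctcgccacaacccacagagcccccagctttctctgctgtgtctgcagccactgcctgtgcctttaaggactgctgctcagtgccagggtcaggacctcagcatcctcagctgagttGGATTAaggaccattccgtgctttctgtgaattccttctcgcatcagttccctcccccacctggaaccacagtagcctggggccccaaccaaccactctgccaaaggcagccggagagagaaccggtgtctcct
Kcnj13: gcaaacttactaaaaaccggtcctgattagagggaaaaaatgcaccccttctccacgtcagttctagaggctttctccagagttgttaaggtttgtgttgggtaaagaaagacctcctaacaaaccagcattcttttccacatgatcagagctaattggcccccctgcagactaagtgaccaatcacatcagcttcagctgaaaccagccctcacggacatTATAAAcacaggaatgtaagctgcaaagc
Kcne2: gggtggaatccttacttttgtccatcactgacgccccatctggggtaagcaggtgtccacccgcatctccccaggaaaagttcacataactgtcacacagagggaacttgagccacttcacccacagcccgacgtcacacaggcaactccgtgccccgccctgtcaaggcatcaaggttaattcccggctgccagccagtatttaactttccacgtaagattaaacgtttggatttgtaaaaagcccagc
The OTX core TAATCC, the TATA box TATAAA and the forkhead core TGTTTAC were searched on both strands, and they were chosen with the gene list in view. Of the 42 genes called higher below, 28 had an entry in the table. TAATCC was found in 3 of these 28 (10.7%: Ace, Mfrp and Rnf138rt1), against 7.21% of all 27025 genes with a promoter entry and 6.20% of the tested genes that had one. TATAAA was found in 5 of them (17.9%: Ace, Cldn2, Inmt, Kcnj13 and Slc4a5), against 14.3% and 7.36%. TGTTTAC was found in 1 of them (3.57%: Dlk1), against 3.54% and 2.54%. A match is a description of the letters in this window, not of a binding site.

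Among genes whose mean over the 6 libraries reached 0.1 FPKM, few differed between the sides by 2-fold or more. Differences were taken between the side means of log2(scaled FPKM + 0.1), after median-of-ratios scaling, and a gene was called when the difference reached 1 in size and the 3 libraries of one side did not overlap those of the other. Of 12226 genes, 42 were called higher in the Ttr-high libraries (0.344%) and 21 lower (0.172%). Every Ttr-high library lay above every Ttr-low library in 656 genes (5.37%) and below in 790 genes (6.46%), whatever the size. The median difference over all genes was -0.010. With a pseudocount of 1 the counts were 9 higher and 11 lower, and at a mean of 1 FPKM or more 7 and 13. The lower count was 35 without WT 3, 36 without HET 1 and 32 without HET 3. In bulk RNA, fewer cells of a type and less RNA per cell cannot be told apart, so each value below speaks of RNA in the library only.

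**Figure D1:**
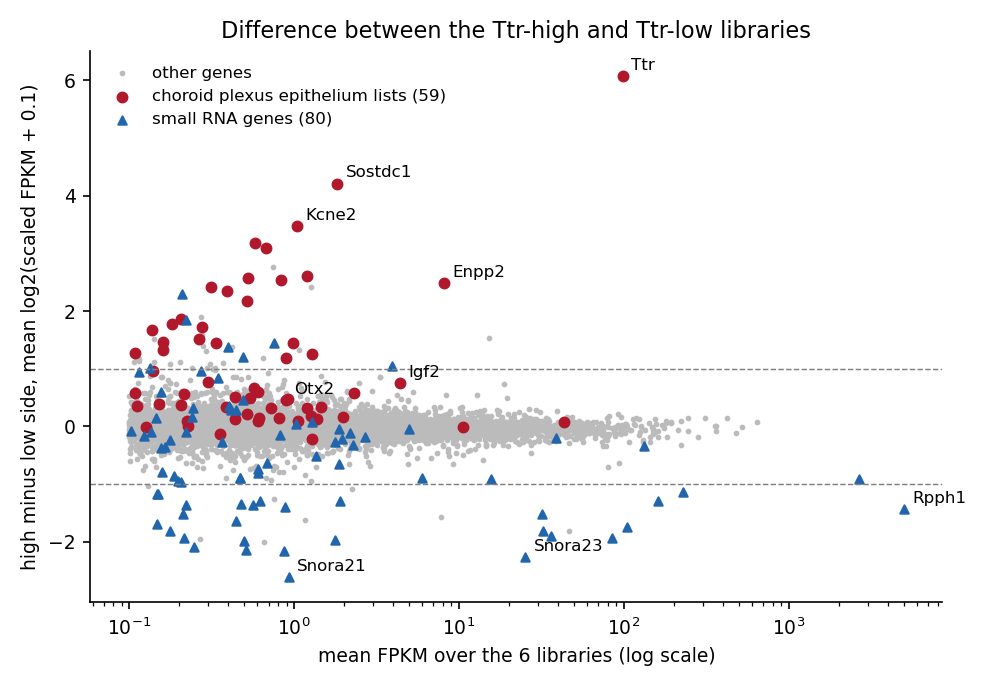
Difference between the sides (mean log2(scaled FPKM + 0.1), high minus low, vertical axis) against mean FPKM over the 6 libraries (log axis) for the 12226 genes, with the 59 choroid plexus epithelium genes as red points and the 80 small RNA genes as blue triangles; dashed lines mark a 2-fold difference. Ttr stands alone at 6.08. Of the 42 genes called higher, 24 are choroid plexus list genes, and of the 21 called lower, 15 are small RNA genes. Points beyond the lines also include genes whose sides overlap and which were not called, such as Fos (1.53).

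The 5 marker genes of the choroid plexus epithelium separated the libraries without overlap, each by more than 5-fold. Ttr (chromosome 18, 20665280 to 20674321, plus strand, mm10) stood at 273, 150 and 156 FPKM in the Ttr-high and at 0.566, 3.15 and 6.43 FPKM in the Ttr-low libraries. The ratio of the scaled side means was 52.1, and Ttr alone made up 0.245% to 0.434% of all summed FPKM on the high side and at most 0.00992% on the low side. WT 1 was the highest of all libraries and WT 2 the lowest, so the whole range of Ttr was spanned by 2 libraries of the same genotype.

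Sostdc1, a secreted antagonist of BMP and Wnt signals (chromosome 12, 36314139 to 36318452, plus strand), stood at 5.13, 3.04 and 2.56 FPKM against 0.0174, 0.0836 and 0.153 FPKM, a difference of 4.21 on the log2 scale and a ratio of means of 38.6. In reads this was about 123 to 259 in a Ttr-high library and 0.829 to 6.24 in a Ttr-low one. Sostdc1 was thus at the edge of detection on the low side. Kcne2, a potassium channel subunit that sits in the apical membrane of plexus cells, stood at 3.15, 1.73 and 1.14 FPKM against 0.0194, 0.0416 and 0.152 FPKM (difference 3.47, ratio 25.8). The order of the 3 Ttr-low libraries for Kcne2 and Sostdc1, lowest in WT 2 and highest in HET 3, was that of Ttr.

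Kcnj13, the inward rectifier channel Kir7.1, stood at 3.07, 1.69 and 1.76 FPKM against 0.172, 0.270 and 0.237 FPKM (difference 2.60, ratio 8.46). Kcnj13 lies within Gigyf2 on the opposite strand, and the strand setting of the quantification is not given in the sources used here, so reads of the 2 genes may not be fully separated. Enpp2, the secreted enzyme autotaxin that makes lysophosphatidic acid, stood at 18.9, 11.0 and 12.5 FPKM against 1.5, 2.33 and 2.57 FPKM (difference 2.48, ratio 5.85). Enpp2 is also made by oligodendrocytes, and it kept about 125 to 182 reads per library on the low side. Its 2 sides were still far apart, with the lowest Ttr-high value at 11.0 FPKM.

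**Figure D2:**
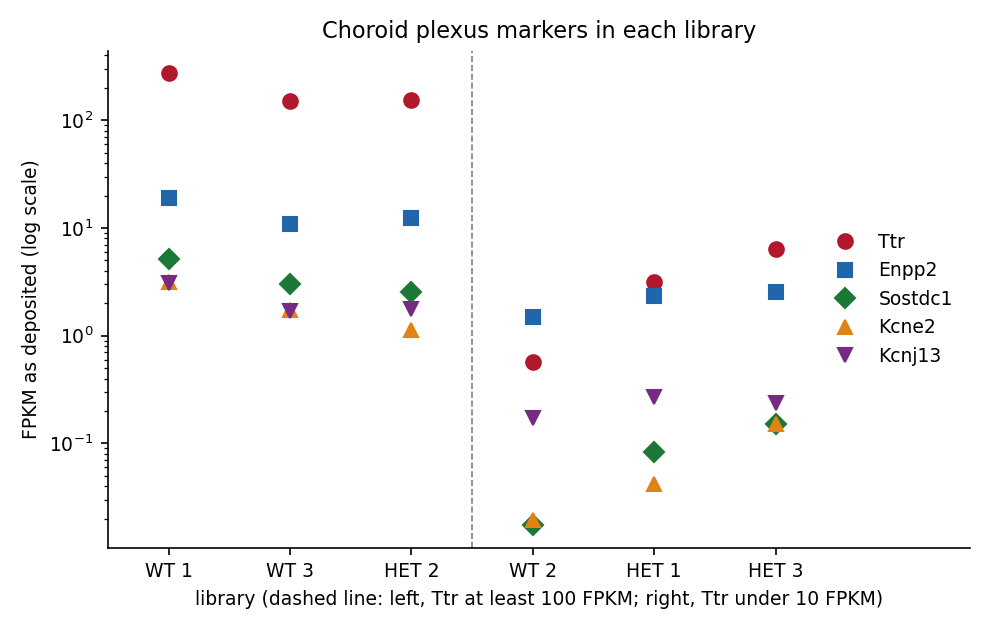
FPKM as deposited (log axis) of the 5 choroid plexus markers in each library, 1 point per gene and library, with the Ttr-high libraries left and the Ttr-low libraries right of the dashed line. Every marker is higher in each of the 3 left libraries than in any of the 3 right ones, from 52.1-fold by side means for Ttr to 5.85-fold for Enpp2.

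To see how far the rest of the plexus moved with these markers, 81 genes of the choroid plexus epithelium were grouped by role into 6 lists, and 59 of them reached a mean of 0.1 FPKM. Of these 59, 24 were called higher and 0 lower, 41 lay fully above the low side, 1 fully below it (Msx2), and their median difference was 0.57, against -0.010 for all genes. Over all 12226 genes, 0.344% were called higher and 0.172% lower, 5.37% lay fully above the low side and 6.46% fully below it. These counts describe the split and support nothing about it. The Ttr-low mean reached 0.1 FPKM in 41 of the 59 genes, and the others passed the minimum only through the high side, where they had to be higher. Of the 24 called, 9 had a Ttr-low mean of 0.1 FPKM or more. Of the 22 list genes under the minimum, 14 lay fully above the low side.

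Among secreted proteins, 8 of 14 genes were called higher (median 1.34). Kl, the gene for the membrane and shed form of klotho, stood at 1.42, 0.789 and 0.760 FPKM against 0.0235, 0.0734 and 0.105 FPKM (difference 2.57). 1500015O10Rik, which encodes the secreted peptide precursor Ecrg4, stood at 2.08, 1.22 and 1.22 FPKM against 0.0809, 0.246 and 0.131 FPKM (difference 2.54). Igfbp2, a binding protein for insulin-like growth factors, was less far apart, at 2.40, 1.49 and 1.77 FPKM against 0.347, 0.971 and 0.720 FPKM (difference 1.25).
All 3 genes were lowest in WT 2. Igf2, the growth factor itself, stood at 6.99, 4.87 and 5.24 FPKM against 1.95, 3.68 and 3.41 FPKM, without overlap but under 2-fold (difference 0.75). Mdk, the growth factor midkine, overlapped, at 11.9, 10.1 and 11.8 FPKM against 8.63, 10.5 and 10.7 FPKM (difference -0.01).

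Ion and water transport followed, with 7 of 13 genes called higher (median 1.46). The water channel gene Aqp1 stood at 0.816, 0.408 and 0.593 FPKM against 0.0182, 0.0260 and 0.0178 FPKM (difference 2.41), which is about 1 to 2 reads in each Ttr-low library. Aqp1 RNA was therefore barely detected on the low side. The bicarbonate enzyme gene Car12 (difference 1.87), the chloride channel gene Clic6 (1.73), the bicarbonate transporter gene Slc4a5 (1.46) and the membrane protein gene Tmem72 (1.67) were called with Kcne2 and Kcnj13. The list members of highest mean level differed less. Slc4a2, an anion exchanger, stood at 3.40, 2.34 and 3.01 FPKM against 1.36, 1.77 and 1.91 FPKM (difference 0.57), without overlap. Atp1b1, a subunit of the sodium pump, stood at 47.2, 41.7 and 52.8 FPKM against 34.0, 43.2 and 40.6 FPKM (difference 0.07), and its sides overlapped.

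Of the 14 carriers of vitamins, nutrients and organic ions, 1 was called higher (median 0.28). This was Folr1, the folate receptor that carries folate into cerebrospinal fluid, at 1.53, 0.895 and 0.957 FPKM against 0, 0.0383 and 0.0386 FPKM (difference 3.18). Folr1 had about 33.6 to 57.0 reads in a Ttr-high library and 0 to 1.26 in a Ttr-low one, and it overlaps Anapc15 on the opposite strand. The sulfate carrier gene Slc13a4 stood at 0.862, 0.667 and 0.714 FPKM against 0.247, 0.496 and 0.428 FPKM (difference 0.66), without overlap. The other folate carrier, Slc46a1, overlapped, with 1.76, 1.08 and 1.5 FPKM against 0.965, 1.22 and 1.10 FPKM (difference 0.18), and so did the vitamin C carrier Slc23a2 (difference 0.12).

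Of 12 genes of epithelial junctions and keratins, 5 were called higher (median 0.77). Cldn2, the claudin that forms pores for small cations in leaky epithelia, stood at 1.31, 0.879 and 0.621 FPKM against 0.0704, 0.0865 and 0.157 FPKM (difference 2.18). Krt18, a keratin of simple epithelia, stood at 0.933, 0.605 and 0.649 FPKM against 0.0293, 0.0522 and 0.0688 FPKM (difference 2.34). Its partner Krt8 (1.28) and the tight junction gene Cldn1 (1.77) were called as well. Ezr, which links the apical membrane to actin, stood at 0.905, 0.651 and 0.796 FPKM against 0.331, 0.509 and 0.445 FPKM (difference 0.59), without overlap. Cdh1, the classical E-cadherin gene of other epithelia, did not separate the sides (difference -0.01).

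Of 9 receptors and membrane enzymes, only Mfrp and Ace reached the minimum level, and both were called. Mfrp, a frizzled-related membrane protein, stood at 1.80, 1.10 and 1.01 FPKM against 0.0290, 0.0389 and 0.0805 FPKM (difference 3.09), with overlap of C1qtnf5 on its own strand, from which its reads may not be fully separated. Ace, angiotensin-converting enzyme, stood at 1.62, 1.04 and 1.31 FPKM against 0.313, 0.511 and 0.569 FPKM (difference 1.18). Prlr, the prolactin receptor, lay under the minimum at 0.162, 0.0988 and 0.0800 FPKM against 0.00346, 0.00949 and 0.0127 FPKM. Htr2c, the serotonin receptor known from plexus, also lay under it, at 0.0823, 0.0493 and 0.0600 FPKM against 0.00444, 0.0105 and 0.0227 FPKM. Both receptors were thus higher in each Ttr-high library, at levels too low for the comparison.

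Of the 4 transcription factors of the plexus tested, 2 had a difference above 0 and 2 below. Msx1, a homeobox factor, stood at 2.22, 1.34 and 1.02 FPKM against 0.227, 0.583 and 0.501 FPKM and was the 1 called (difference 1.44). Otx2, the factor that specifies plexus and also acts in other brain regions, stood at 1.48, 1.04 and 0.792 FPKM against 0.485, 0.726 and 0.815 FPKM (difference 0.45). Its sides overlapped, since HET 3 lay above HET 2. After scaling, HET 2 (0.699) lay below both HET 1 (0.731) and HET 3 (0.823). Msx2 stood at 1.31, 1.23 and 1.24 FPKM against 1.23, 1.46 and 1.23 FPKM, a scaled difference of -0.22 that put every Ttr-high library below.

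Outside the lists, Prr32, a gene for a proline-rich protein, had the largest difference of any gene whose mean reached 0.5 FPKM, at 1.94, 1.04 and 1.13 FPKM against 0, 0.211 and 0.139 FPKM (difference 2.77). The membrane protein gene Itpripl1 stood at 1.19, 0.865 and 0.850 FPKM against 0.318, 0.263 and 0.373 FPKM (difference 1.19). Trf, the iron carrier transferrin made by oligodendrocytes and plexus, stood at 27.6, 20.5 and 25.4 FPKM against 9.25, 12.6 and 17.6 FPKM (difference 0.74), without overlap. In all, 24 of the 42 called genes (57.1%) were on a plexus list, against 0.483% of all genes tested. The call just inside the limit was Rnf138rt1 at 1.006, and the one just outside was Sema3b at 0.996, a semaphorin gene chosen after its value was seen. Among lower genes the same limits were Gm17644 at -1.093 and Rmrp, the RNA of RNase MRP, at -0.914.

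Within the Ttr-high side, the plexus genes differed between libraries by ratios close to those of Ttr. The ratio of WT 3 to WT 1 in scaled FPKM had a median of 0.614 over the 23 called plexus genes other than Ttr, from 0.387 for Krt8 to 0.729 for Cldn2, beside 0.599 for Ttr and 0.992 for all genes. The ratio of HET 2 to WT 1 had a median of 0.545, from 0.346 for Kcne2 to 0.776 for Ace, beside 0.550 for Ttr and 0.995 for all genes. WT 1 was the highest library in 23 of the 23 genes, against 28.4% of all genes. The 18 called genes outside the lists had medians of 0.586 for WT 3 to WT 1 and 0.697 for HET 2 to WT 1. WT 1 was the highest in 13 of these 18 (72.2%), so this pattern was not confined to the list genes. Their ratios varied more, from 0.118 for Cldn9 to 5.18 for the amino acid carrier Slc7a3 in HET 2 to WT 1.

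On the Ttr-low side, WT 2 was the lowest library in 18 of the 23 genes (78.3%), against 31.6% of all genes. The full order of Ttr, with WT 2 below HET 1 below HET 3, held in 11 of 23 genes (47.8%), against 16.1% of all genes. Several of the 23 had very few reads on this side, so their order is uncertain. In WT 2, HET 1 and HET 3, Folr1 had about 0, 1.26 and 1.16 reads and Krt8 about 0.512, 1.02 and 0.513. These shares are over genes of the same 6 libraries, which are not independent replicates. WT 2 also had the lowest summed FPKM of the plexus lists without Ttr, as deposited. It was 63.1, beside 83.7 in HET 1 and 80.4 in HET 3, and 110 to 148 on the high side. Atp1b1, whose sides overlapped, made up 34.0, 43.2 and 40.6 FPKM of the sums in WT 2, HET 1 and HET 3. The low sum in WT 2 was not particular to plexus genes. Its Purkinje cell list also had the lowest sum, at 555 FPKM, beside 756 in HET 1 and 742 in HET 3.

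**Figure D3:**
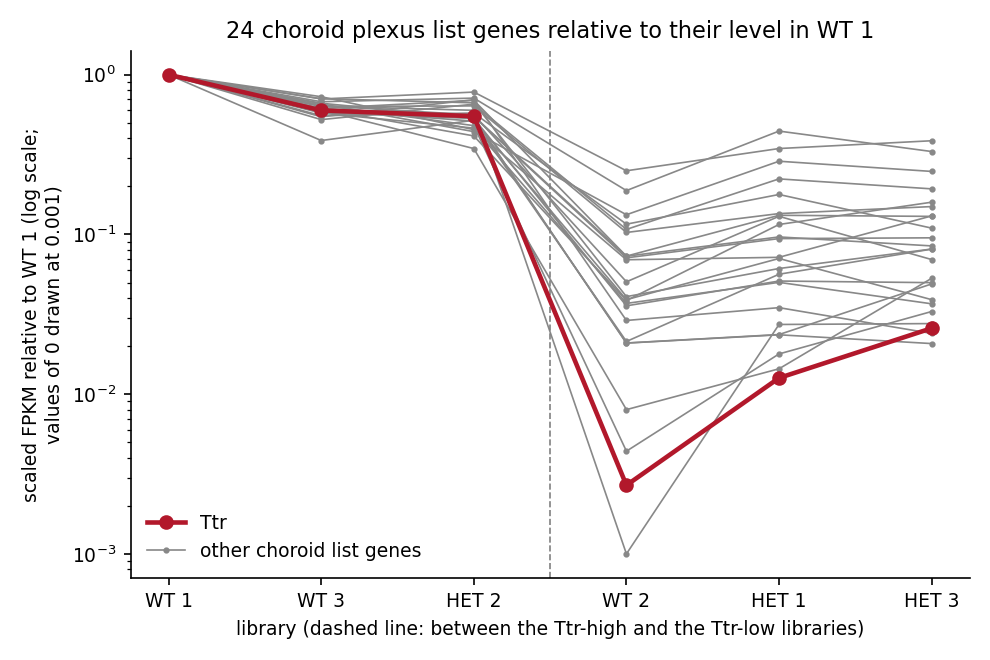
Scaled FPKM of the 24 called choroid plexus list genes relative to the level of the same gene in WT 1 (log axis), 1 line per gene and Ttr in red, for the 3 Ttr-high libraries left and the 3 Ttr-low libraries right of the dashed line. The lines lie close together in WT 3 and HET 2, with medians of 0.614 and 0.545, and spread out on the low side, where Ttr is among the lowest and Ace among the highest; the 1 value of 0 (Folr1 in WT 2) is drawn at 0.001.

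The 24 called plexus genes were chosen from these same libraries for a full separation of the sides, which fixes the direction within each genotype, so only the sizes are described here. Comparing WT 1 and WT 3 with WT 2, all 24 were at least 2-fold higher, with a median difference of 2.34. Comparing HET 2 with HET 1 and HET 3, 20 of the 24 were at least 2-fold higher, with a median of 1.56. Of all 12226 genes, 89 were at least 2-fold higher without overlap within WT, 62 within HET and 33 within both. A comparison within a genotype has 1 library on one side, and no replicate check exists for that library.

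Lists for the other cells that lie next to plexus showed smaller differences. Of 35 genes of motile cilia and ependymal cells, which line the ventricles, 12 reached the minimum, all with a difference above 0 (median 0.49), and 4 lay fully above the low side. Over all 12226 genes, 5683 had a difference above 0 and 656 (5.37%) lay fully above the low side. Foxj1, the master factor of motile cilia, stood at 2.80, 1.56 and 1.97 FPKM against 0.8, 1.61 and 1.31 FPKM (difference 0.55), and its sides overlapped. Rsph4a, a radial spoke protein of the cilium, stood at 0.313, 0.189 and 0.203 FPKM against 0.0239, 0.113 and 0.0921 FPKM (difference 0.85), without overlap.

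Plexus stroma and fenestrated vessels (9 tested, median 0.14), meninges (18, median 0.24), border macrophages (6, median 0.25) and microglia (12, median 0.24) had 0 called genes. Most of their differences were above 0, however small, in 6 of 9 stromal, 18 of 18 meningeal, 5 of 6 macrophage and 10 of 12 microglia genes, against 5683 of all 12226 genes. The collagen gene Col1a2 stood at 0.989, 0.788 and 1.17 FPKM against 0.559, 0.779 and 0.725 FPKM (difference 0.28). Gjb2, a connexin of the arachnoid, stood at 1.89, 1.64 and 2.24 FPKM against 0.842, 1.51 and 1.30 FPKM (difference 0.46), without overlap. The macrophage gene Lyz2 overlapped (difference 0.36). The summed level of the meningeal list ran from 16.3 to 23.3 FPKM on the high and from 10.7 to 20.4 FPKM on the low side, and the part of these cells in the plexus result was not tested. Brain endothelium (14 tested, median 0.15) and pericytes (6, median 0.19) also had 0 called genes, and 13 of 14 and 6 of 6 differences were above 0. Pineal gland and liver genes were near absent from all libraries, with summed levels of at most 0.234 and 0.452 FPKM.

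By the medians of their lists, cells of the cerebellum itself were nearly level between the sides. Granule cell genes had a median of -0.14 over 14 genes, 13 of them below 0 and 0 called, and Cbln1, their synaptic organizer, stood at 140, 130 and 147 FPKM against 140, 158 and 145 FPKM (scaled difference -0.28). Purkinje cell genes had a median of -0.02 over 14 genes, and Pcp2 stood at 175, 143 and 162 FPKM against 122, 162 and 167 FPKM (difference -0.09). Interneurons (median -0.01), astrocytes and Bergmann glia (0.08) and oligodendrocytes (0.03) had 0 called genes too. Enpp2, which oligodendrocytes share with plexus, thus differed far more than the myelin list.

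**Figure D4:**
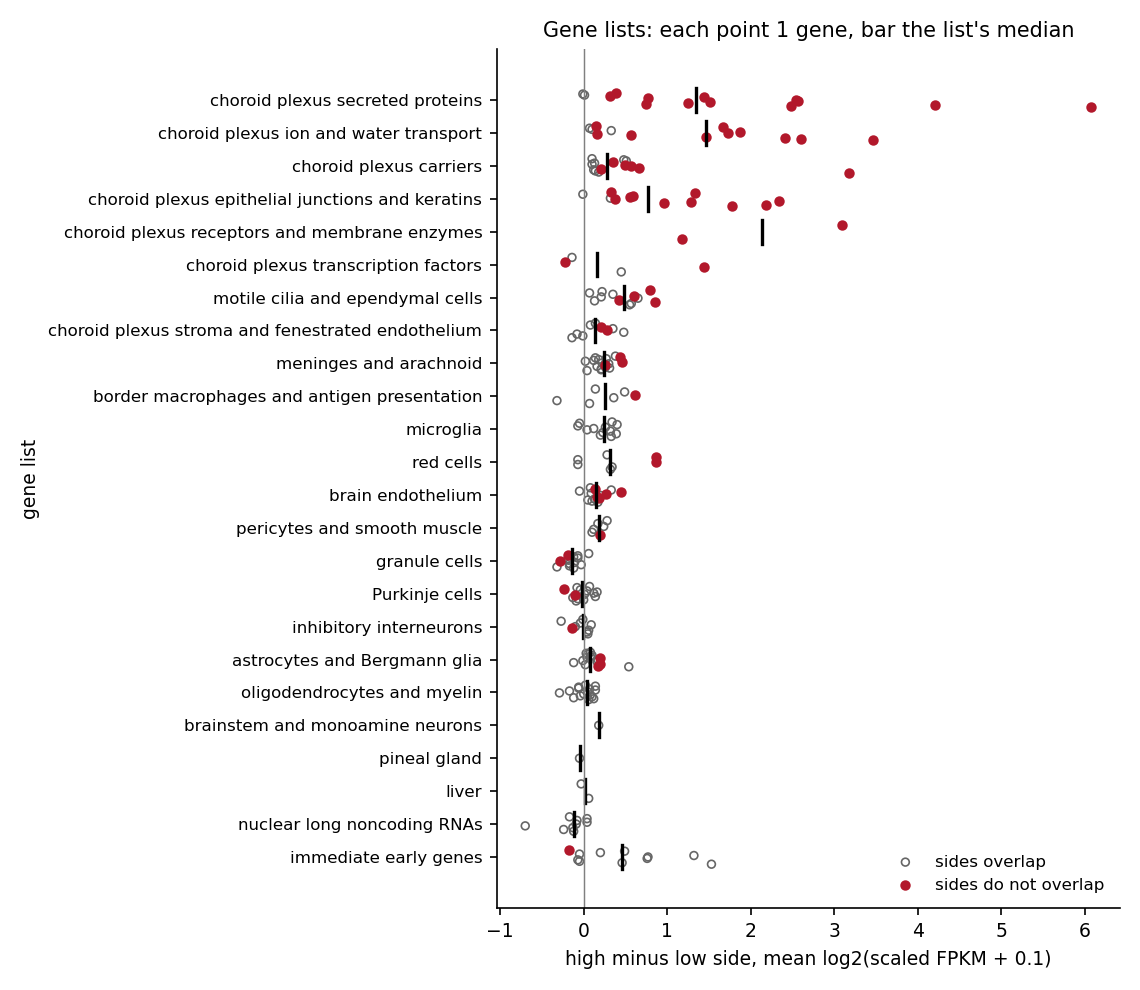
Difference between the sides (mean log2(scaled FPKM + 0.1), high minus low, horizontal axis) for the tested genes of 24 gene lists, 1 point per gene, filled red where the 3 libraries of each side do not overlap, with a black bar at each list's median. The plexus lists for secreted proteins and for ion and water transport have medians of 1.34 and 1.46, while the lists of cerebellar neurons and glia lie between -0.14 and 0.08.

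The genes called lower in the Ttr-high libraries were of another kind. Of the 21, 15 (71.4%) were of small RNA classes, against 0.654% of all genes tested, and 0 were on a plexus list. These were 14 structural RNAs, of kinds that guide RNA modification, splice or process other RNAs, and the miRNA gene Mir6236. Of 80 small RNA genes tested, 60 had a difference below 0, 19 lay fully below the low side, and the median was -0.65. Over all 12226 genes, 6543 had a difference below 0 and 790 (6.46%) lay fully below the low side. Small nucleolar RNAs had a median of -0.85 over 42 genes, while 26 miRNA genes had one of -0.07.

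Rpph1, the RNA of RNase P, which trims precursor tRNA, was the most abundant, at 3642, 2992 and 2230 FPKM against 6942, 5294 and 8653 FPKM (difference -1.43). Rnu12, the U12 RNA of the minor spliceosome, stood at 49.5, 47.8 and 16.5 FPKM against 168, 50.9 and 175 FPKM (difference -1.94). Rnu11, the U11 RNA of the same spliceosome, stood at 19.9, 25.2 and 6.83 FPKM against 70.3, 26.2 and 67.2 FPKM (difference -1.91).
In both spliceosomal RNAs HET 1 lay close to the Ttr-high libraries, and HET 2 was the lowest of all. Snora23, a guide of pseudouridylation inside Ipo7, stood at 10.3, 16.9 and 4.01 FPKM against 49.8, 22.5 and 48.4 FPKM (difference -2.27). Rprl3, an RNase P RNA-like gene, stood at 54.7, 62.7 and 36.8 FPKM against 187, 84.2 and 206 FPKM (difference -1.75). Snora81 (difference -1.81) and Vaultrc5, a vault RNA (-1.58), showed the same split. Snora21 had the lowest value, -2.62, at about 0 to 6.43 reads per library. It was 1 of 6 among the 15 with at most 13.2 reads in any library, with Snora15, Snora17, Snora44, Snora52 and Mir6236.

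Small RNA classes made up 10.2%, 10.4% and 7.31% of all summed FPKM in the Ttr-high libraries and 21.4%, 14.4% and 21.6% in the Ttr-low ones. The share of small RNAs therefore moved with the Ttr split, but it rests mostly on Rpph1 and Rmrp. In WT 2 these stood at 6942 and 3424 FPKM, of 55120.5 summed FPKM. Rmrp, which was not called, stood at 2076, 2038 and 1921 FPKM against 3424, 2746 and 3875 FPKM. With the small RNA classes left out and the rest rescaled, 48 genes were higher, 41 of them among the 42, and 6 were lower. Those 6 are the genes called lower before that lie outside these classes. The fall from 21 thus follows from leaving the classes out. Of the plexus list genes, 25 were then called higher, against 24 before. The order of Ttr was not mirrored, since HET 2, not WT 1, was lowest in Rpph1, Rnu12, Rnu11, Snora23 and Rprl3.

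**Figure D5:**
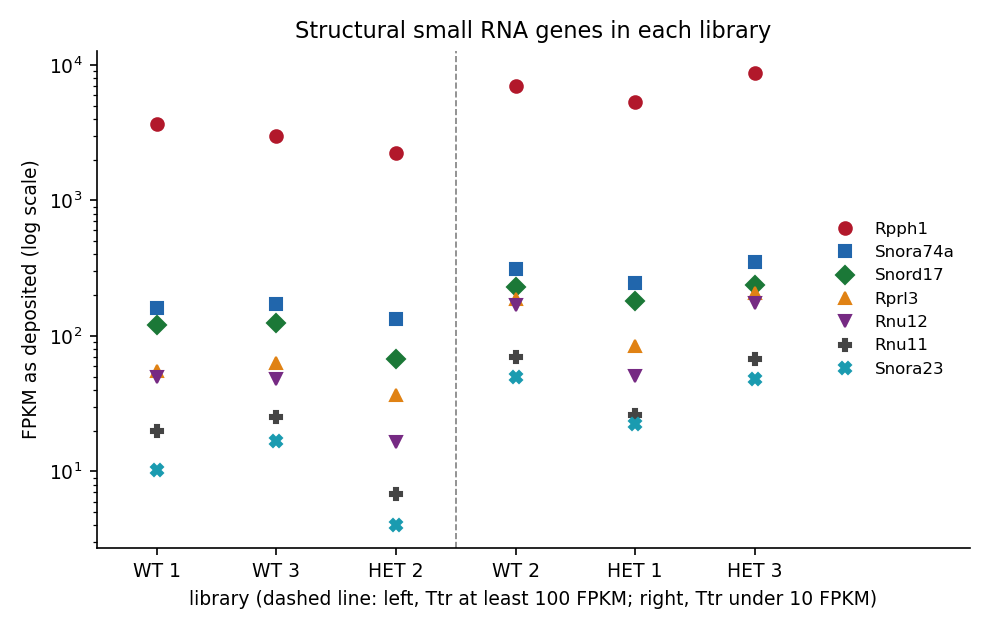
FPKM as deposited (log axis) of 7 structural small RNA genes in each library, 1 point per gene and library, with the Ttr-high libraries left and the Ttr-low libraries right of the dashed line. Each gene is lower in all 3 left libraries, with HET 2 the lowest, and for Rnu12 and Rnu11 the HET 1 value lies just above those of WT 1 and WT 3.

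The comparison of the study itself, HET against WT, runs across the split, since 2 WT and 1 HET libraries were Ttr-high and 1 WT and 2 HET libraries Ttr-low. In limma over all 12226 genes, 1 gene was called at an adjusted p under 0.05 (0.00818%), and 617 had an unadjusted p under 0.05. That gene was Mir6392, listed at 0 in the 3 WT libraries and at 0.368, 0.342 and 0.405 FPKM in HET 1, 2 and 3 (limma log2 difference 2.2, SE 0.11, adjusted p = 0.0029). Mir6392 lies inside Pnpla3, and each HET value is worth about 1 read. Without HET 1 it was not called (limma adjusted p = 0.058). Reln differed by -0.65 (SE 0.11, limma adjusted p = 0.84) and was not called.

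The plexus genes had lower means in HET in this fit, with wide errors. They were chosen to be higher on the Ttr-high side, which holds more WT than HET libraries. Lower HET means thus largely follow from that choice. The 23 called plexus genes other than Ttr had HET minus WT values from -1.37 to -0.11, with a median of -0.77, all 23 below 0, and a median SE of 0.68 beside 0.09 for all genes. Kcne2 had -1.37 (SE 1.29), Sostdc1 -1.35 (SE 1.56), Kcnj13 -0.98 (SE 0.95) and Enpp2 -0.77 (SE 0.93). Ttr had -1.10 (SE 2.40). None of the 24 passed, and the smallest limma adjusted p of the 23 was 0.84.

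These values depended on how Ttr entered the model. With the Ttr side as a term they moved to near 0 with narrower errors. The median over the 23 genes was -0.04 (from -0.27 to 0.34), 14 were below 0, and the median SE was 0.24. Kcne2 then had -0.23 (SE 0.45), Kcnj13 -0.13 (SE 0.24), and Sostdc1 and Enpp2 each 0.06 (SE 0.38 and 0.24). The smallest limma adjusted p among them was 0.72. With the log2 level of Ttr as the term in its place, the median was -0.41 (from -0.78 to 0.12), 22 of the 23 were below 0, and the median SE was 0.16. Kcne2 then had -0.78 (SE 0.12), Sostdc1 -0.64 (SE 0.12), Kcnj13 -0.56 (SE 0.20) and Enpp2 -0.35 (SE 0.14). None of the 23 was called, and the smallest limma adjusted p was 0.42. Both terms were built from Ttr, with which these genes were chosen to move, so these values describe the fits. With the side term, Mir6392 was again the 1 gene called (0.00818%), with a limma adjusted p of 0.011, and 983 genes had an unadjusted p under 0.05.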

How the data were processed

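RNA-seq libraries were made from total RNA of the cerebellum with a stranded total RNA kit and sequenced as single-end reads, per the labels' protocols. The deposited values are FPKM per gene, 1 library per file, which the authors made by removing mitochondrial and ribosomal sequences, aligning to mm10 with TopHat2 and Bowtie and quantifying with Cufflinks, as stated per the labels. Cuffdiff 2.1.1 is named for the authors' own test, per the submitters' processing notes, and its output was not used here. For the other tools the versions, and for the quantification the annotation and strand setting, were not given in the sources used here. In HET 2, 40 values read as spreadsheet dates, and those genes were left out.

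FPKM was scaled by median of ratios over 15942 genes above 0 in all libraries, and genes whose mean reached 0.1 FPKM were compared on log2(scaled FPKM + 0.1), a scale that understates the difference of low genes. HET and WT were compared by limma (version 3.58.1, under R 4.3.3) with a trend on level, and p-values were adjusted over all tested genes after Benjamini and Hochberg. Python 3.11.15 was used for all else (numpy 2.4.6, pandas 2.3.3, matplotlib 3.10.9), and both comparisons were tested on simulated data. Depth was estimated from the steps of whole reads in low FPKM values of 3682 genes with 1 transcript, and read numbers are approximate and cover counting error only. Gene positions and overlaps are from the GENCODE annotation of GRCm38, which matched 97.1% of genes. The FPKM of RNAs shorter than a sequenced fragment depends on the length correction of the quantification.

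The split, the gene lists and the motifs were chosen with earlier results of these data known. Named genes were the 5 markers, the 25 largest positive and 10 largest negative differences among genes whose mean reached 0.5 FPKM and whose sides did not overlap, up to 4 genes of each list, and genes past the HET against WT threshold. Other genes named, such as Aqp1, Cldn1, Prlr, Htr2c, Slc7a3 and Rpph1, were chosen after their values were seen. Alternatives were FPKM as deposited, quantile normalization, pseudocounts, level minimums, other fold limits, leaving out each library, the Ttr side or level as a term, a replicate block, each genotype alone and small RNAs left out. The pairing of replicate numbers was checked and is given in the closing section.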

Additional observations from a re-analysis of the deposited data

How the results depend on the processing

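No gene among the 63 called between the sides reversed under the alternatives run. They were chosen for full separation of the sides, so leaving out a library or a genotype could hardly reverse them. With a pseudocount of 1, the differences of 49 of them moved by at least the spread within the sides. The counts depend on how low levels are treated. The 42 higher and 21 lower genes became 9 and 11 with a pseudocount of 1, where 7 of the 9 were plexus list genes, and 7 and 13 at a mean of at least 1 FPKM, where 17 of the plexus list genes were left to test and 6 were called. At 1.5-fold they were 79 and 34, and at 4-fold 15 and 4, with 12 plexus list genes. Leaving out each library gave 38 to 53 higher genes and 23 to 36 lower, the latter 35 without WT 3, 36 without HET 1 and 32 without HET 3. FPKM as deposited gave 50 and 19, and quantile normalization 40 and 18. Leaving out small RNAs by itself removes 15 of the 21 lower genes. These alternatives were chosen after seeing the data: within WT, with the level minimum applied there, the counts were 89 and 127, within HET 66 and 38, and with small RNAs left out the lower count was 6.

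HET against WT called 1 gene in limma, 3 with FPKM as deposited, 0 at a mean of at least 1 FPKM (335 genes at an unadjusted p under 0.05) and 2 with log2 Ttr as a term. Leaving out each library gave 0 to 3, with 0 without HET 1 (533 at an unadjusted p under 0.05) and 3 without WT 1, WT 2 or WT 3. With the Ttr side as a term the lower means of Sostdc1 and Enpp2 turned to 0.06 each, while with log2 Ttr as a term they were -0.64 and -0.35, and Ttr ranged from -3.76 to 0.41 when each library was left out (0.41 without WT 1, 0.04 without WT 3). With the replicate number as a block, 0 genes were called (643 at an unadjusted p under 0.05), and Mir6392 had a limma adjusted p of 0.21. The deviations of libraries of the same number had correlations of -0.21, -0.36 and 0.11. The deviations sum to 0 within each genotype, so these values depend on one another. They cannot settle whether the numbers pair the libraries. WT 1 went best with HET 2 (0.35) and WT 2 with HET 1 (0.33). Snord8, listed at 0 in HET, was called with FPKM as deposited, with log2 Ttr as a term and without WT 2.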

Other observations

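Genes of other families were also among the 42 higher in the Ttr-high libraries, and they were chosen here after their values were seen. The replication-dependent histone gene Hist1h2bk stood at 2.40, 1.27 and 2.67 FPKM in WT 1, WT 3 and HET 2 and at 0.310, 0.970 and 2.43e-05 FPKM in WT 2, HET 1 and HET 3. Histone genes have near-identical copies, so reads may be split among them. Of 60 histone genes tested, 3 were called higher, the others being Hist1h2ad (difference 1.89) and Hist1h3c (1.12). The histone gene Hist2h3b was the 1 called lower (-1.62). Slc7a3, a carrier of cationic amino acids, stood at 0.222, 0.192 and 1.20 FPKM against 0.102, 0.141 and 0.134 FPKM, so that its difference of 1.01 rests mostly on HET 2. Drc7, a gene of the motile cilium, stood at 0.426, 0.217 and 0.245 FPKM against 0.0178, 0.0553 and 0.0379 FPKM (difference 1.41). Mir425, the small RNA called higher, was worth about 1 read in each Ttr-high library and listed at 0 in the others.

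Of the immediate early genes, which neurons switch on with activity, Fos and Npas4 had the largest differences, while Egr1 ranged only from 3.29 to 3.97 FPKM over the 6 libraries. Fos stood at 21.9, 24.1 and 13.4 FPKM in the Ttr-high libraries and at 4.89, 1.5 and 25 FPKM in the Ttr-low ones (difference 1.53), and HET 3, the highest of all, made the sides overlap. Npas4 stood at 1.94, 1.61 and 1.10 FPKM against 0.371, 0.22 and 1.17 FPKM (difference 1.32), with the same 2 libraries, WT 2 and HET 1, as the lowest. Red cell genes were mixed: Hbb-bt and Hbb-b2, listed with identical values, lay fully above the low side (difference 0.86), while Hbb-bs overlapped, at 122, 43.2 and 66.6 FPKM against 62.2, 85.7 and 50.8 FPKM (difference -0.07).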
